A study of Mus musculus with 6 samples.

Results

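This account follows 9 genes of the brain extracellular matrix and its cell surface anchors in cultured neural stem cells. They are the lectican proteoglycans Bcan, Ncan and Vcan, the link protein gene Hapln1, the membrane-bound proteoglycans Cspg5 and Ptprz1, the glycoprotein gene Tnc, and the related matricellular genes Sparc and Sparcl1. The members were taken by name, and all 9 were found among the 55802 genes listed. The cells were primary neural stem cells of wild-type adult C57BL/6 mice, taken from the subventricular zone (SVZ) along the lateral ventricles, and kept in a neurobasal medium with B27 supplement, with the age of the mice not given in the sources used here. One group (SETD4 OE, n = 3) was infected for 24 h with ADV-SETD4-GFP, an adenovirus that carries SETD4, which belongs to the lysine methyltransferases with a SET domain, together with green fluorescent protein. The other (control, n = 3) received ADV-GFP, so both groups carried an adenovirus and the fluorescent protein. The comparison asks how raised SETD4 alters the transcripts of these cells. Nothing in the labels says whether the 3 libraries of a group came from separate mice or cultures, so the p-values measure the spread between these libraries, which may be technical.

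The matrix of the brain holds little fibrillar collagen and is built on hyaluronan, a long sugar chain made at the cell membrane. Lecticans bind hyaluronan at one end, link proteins lock that bond, and tenascins bind the other end of the lecticans, so that the parts form a net around cells. The chondroitin sulfate chains on lecticans and on Ptprz1 bind growth factors such as pleiotrophin, and Sparc and its relative Sparcl1 are secreted proteins that act on cell shape, adhesion and synapses rather than as scaffold. Several of these genes are strongly expressed by astrocytes, radial glia and oligodendrocyte precursors.

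Levels are given as FPKM, the sequenced fragments of a gene scaled by its length and by the size of the library, so that genes can be compared. From these values whole reads were recovered, 14924273 to 18078717 per library. Setd4 checked the labels: it stood at 0.952, 0.972 and 1.53 FPKM in the controls and at 296, 346 and 333 FPKM in SETD4 OE, where reads of the virus and of the mouse gene are not separated. Neural stem cell markers were present in every library (9 of 10 reached a mean of 5 FPKM). Of 9 endothelial markers, only Cldn5 and Tie1 had 0 reads in all 6 libraries. Flt1 was the most abundant of that list, with a control mean of 3.43 FPKM and a SETD4 OE mean of 0.618. Control replicate 1 stood apart from the other controls in its share of mitochondrially encoded reads, 3.78% against 2.45% in both others and 3.52% to 3.73% in SETD4 OE.

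Of the 9 genes, 4 rose in SETD4 OE (Bcan, Sparcl1, Cspg5 and Ptprz1), 2 fell (Tnc and Ncan), 2 did not pass (Vcan and Sparc), and Hapln1 was too low to be tested. The test was limma on log2(FPKM + 1) over the 12994 genes whose mean reached 1 FPKM, and a gene counts as changed at a Benjamini-Hochberg adjusted p under 0.05. In that fit 60.0% of all tested genes changed, 26.0% upward and 33.9% downward (43.4% of calls upward, and 56.1% when libraries were scaled to equal sums of FPKM), so the 6 of 8 members that changed are a share near that of all tested genes. Larger changes were rarer. Across the transcriptome 4.28% of tested genes rose by more than 1 on the log2 scale and 4.78% fell by more than 1, and among the members Bcan and Sparcl1 rose and Tnc fell by that much. The median log2 fold change was 0.23 over the 8 tested members and -0.06 over all tested genes. The groups did not overlap for 5 of the 8, against 66.0% of all tested genes.

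**Figure D1:**
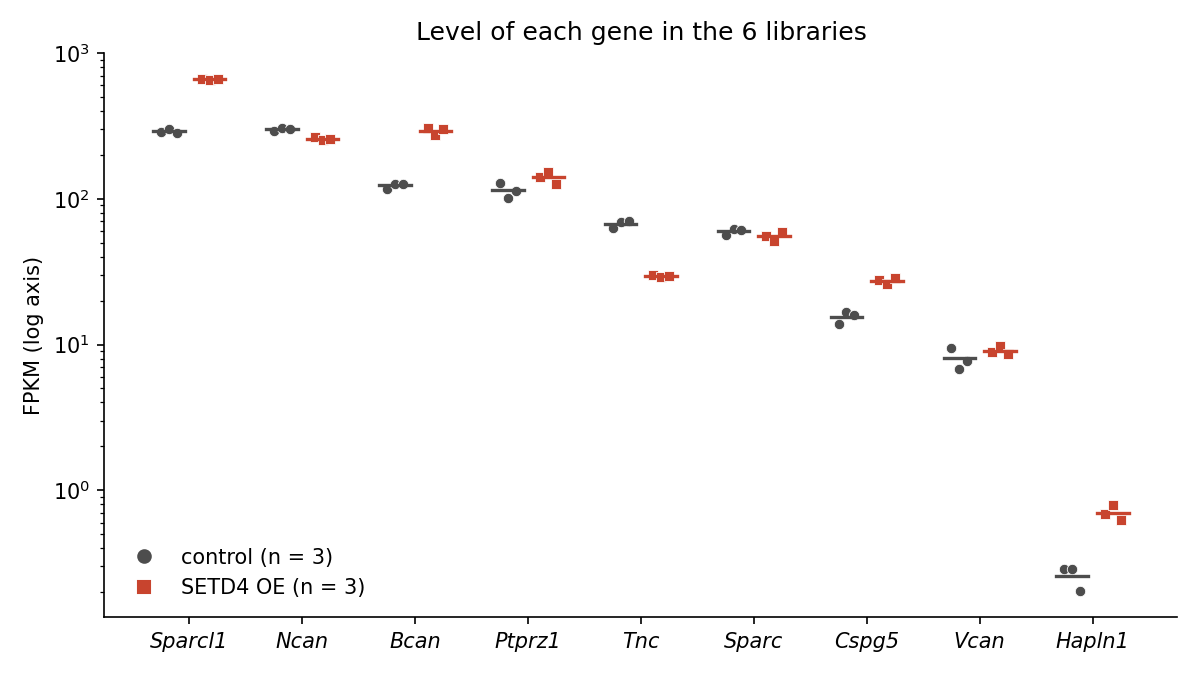
FPKM of each of the 9 genes on a log axis, with a point per library, a bar at the group mean, controls in grey and SETD4 OE in red (n = 3 each). Bcan and Sparcl1 stand higher and Tnc lower in SETD4 OE with no overlap, while the points of Vcan, Ptprz1 and Sparc overlap between the groups.

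The order of the levels differed between the groups. In the controls Ncan (301 ± 7.64 FPKM, mean ± SD, n = 3) and Sparcl1 (291 ± 8.66) led with overlapping values, followed by Bcan and Ptprz1, whose values also overlapped, then Tnc, Sparc, Cspg5, Vcan and Hapln1. In SETD4 OE Sparcl1 led alone at 661 ± 9.23 FPKM, and Bcan, whose lowest library was at 274 FPKM, stood above Ncan, whose highest was at 266. Ptprz1 and then Sparc came next, with Tnc (28.8 to 29.8 FPKM) just above Cspg5 (25.9 to 28.6). Among all 55802 genes ranked by mean FPKM, Sparcl1 went from place 106 to 24 and Bcan from 327 to 71, while Tnc went from 717 to 1681.

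Promoter sequences are shown for the members that moved most clearly against each other, Bcan, which rose, and Tnc, which fell, with Ncan as the lectican that differed little. They are windows of 300 bases around the start of the gene from RefSeq on GRCm38.p6, an earlier build than the deposited coordinates, and lie on the minus strand, written 5′ to 3′. Capitals mark matches to the letters of the GC box and the TATA box on either strand, wherever they lie in the window. The letters are given below, and a match need not be a working box. For Tnc the second of 2 overlapping windows in the table is printed.
Bcan, chr3:88000307-88000606: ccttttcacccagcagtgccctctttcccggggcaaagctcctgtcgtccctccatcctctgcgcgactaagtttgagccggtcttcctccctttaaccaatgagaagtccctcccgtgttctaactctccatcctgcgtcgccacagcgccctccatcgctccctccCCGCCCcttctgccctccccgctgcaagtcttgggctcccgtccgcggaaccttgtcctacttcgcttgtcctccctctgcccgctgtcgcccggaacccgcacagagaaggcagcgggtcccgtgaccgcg
Ncan, chr8:70120795-70121094: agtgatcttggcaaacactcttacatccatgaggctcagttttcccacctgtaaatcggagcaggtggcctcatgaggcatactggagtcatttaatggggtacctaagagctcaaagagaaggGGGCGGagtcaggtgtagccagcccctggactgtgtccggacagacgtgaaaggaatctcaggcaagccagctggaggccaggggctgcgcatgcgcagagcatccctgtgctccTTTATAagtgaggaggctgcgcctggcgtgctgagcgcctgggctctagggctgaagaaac
Tnc, chr4:64046887-64047186: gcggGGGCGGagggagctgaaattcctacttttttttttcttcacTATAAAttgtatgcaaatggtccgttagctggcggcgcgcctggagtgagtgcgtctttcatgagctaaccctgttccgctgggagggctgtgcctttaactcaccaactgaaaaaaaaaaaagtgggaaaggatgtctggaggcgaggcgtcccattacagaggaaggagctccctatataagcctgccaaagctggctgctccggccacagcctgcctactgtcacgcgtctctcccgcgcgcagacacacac

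The table held windows for 7 of the 9 genes. The GC box letters GGGCGG were in those of Bcan, Ncan, Vcan, Ptprz1 and Tnc, and in 35.7% of all 32851 promoters in the table. The TATA box letters TATAAA were in those of Ncan and Tnc and in 13.6% of all promoters, and TGGGAA, the core letters bound by the Notch effector RBPJ, in those of Ncan, Vcan and Tnc and in 25.6%. The AP-1 letters TGANTCA were in none of the members' windows and in 7.81% of all. The NFI core letters TTGGC were in those of Ncan and Tnc (46.7% of all), and the E-box CANNTG in those of Ncan, Vcan, Tnc and Sparc (72.3% of all). Both strands were searched, E-box matches can overlap others, and a match describes letters in the window only. The promoter of Bcan held 64.0% G and C, that of Ncan 56.7% and the printed window of Tnc 54.0%, against a median of 52.7% over all promoters.

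The lecticans did not move together. Bcan (ENSMUSG00000004892; mm39 chromosome 3, 87894838 to 87907537, minus strand) encodes brevican, the shortest core protein of the family and abundant in the adult brain. It measured 117, 127 and 127 FPKM in the controls and 308, 274 and 300 FPKM in SETD4 OE. Every SETD4 OE library was above every control, a 2.38-fold rise of the mean (limma log2 fold change 1.24, SE 0.07, adjusted p = 1.17e-05).

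Ncan (ENSMUSG00000002341; chromosome 8, 70545735 to 70573523, minus strand) encodes neurocan, a secreted lectican most abundant in the developing brain. Its values were 293, 308 and 302 FPKM in the controls and 266, 254 and 256 FPKM in SETD4 OE. All 3 SETD4 OE libraries were lower, but by a small amount (limma log2 fold change -0.22, SE 0.06, adjusted p = 0.0163). The fall passed in 9 of 17 alternative analyses, with an adjusted p of up to 0.233, and the sign turned with quantile normalization (0.10), so the direction depends on how the libraries are scaled. It was also lost when control replicate 3 (adjusted p = 0.0626), SETD4 OE replicate 2 (0.0617) or SETD4 OE replicate 3 (0.0551) was left out.

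Vcan (ENSMUSG00000021614; chromosome 13, 89803431 to 89890628, minus strand) encodes versican, the largest lectican, with splice forms that differ in their chondroitin sulfate regions and that a value per gene does not separate. The controls held 9.49, 6.82 and 7.74 FPKM and SETD4 OE held 8.86, 9.76 and 8.65 FPKM. Control replicate 1 lay within the SETD4 OE range and the groups overlapped (log2 fold change 0.17, 95% interval -0.09 to 0.43, adjusted p = 0.216, limma). Without control replicate 1 the difference passed (0.29, adjusted p = 0.0209), and it also passed with limma-voom on the recovered reads (0.27, adjusted p = 0.04996).

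As a share of the summed lectican FPKM, Bcan went from 28.5 ± 0.544% in the controls to 52.3 ± 1.12% in SETD4 OE and Ncan from 69.6 ± 0.329% to 46.1 ± 0.949%. Vcan made up 1.52% to 2.26% in any library, and Acan, the lectican of cartilage and perineuronal nets, at most 0.0501%. The ratio of Bcan to Ncan was 0.400, 0.411 and 0.419 in the controls and 1.15, 1.08 and 1.17 in SETD4 OE. A ratio within a library does not depend on the scaling between libraries, and it shows unequal change of the pair without saying which of them moved. The summed lectican level was 420 to 442 FPKM in the controls and 538 to 583 FPKM in SETD4 OE.

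**Figure D2:**
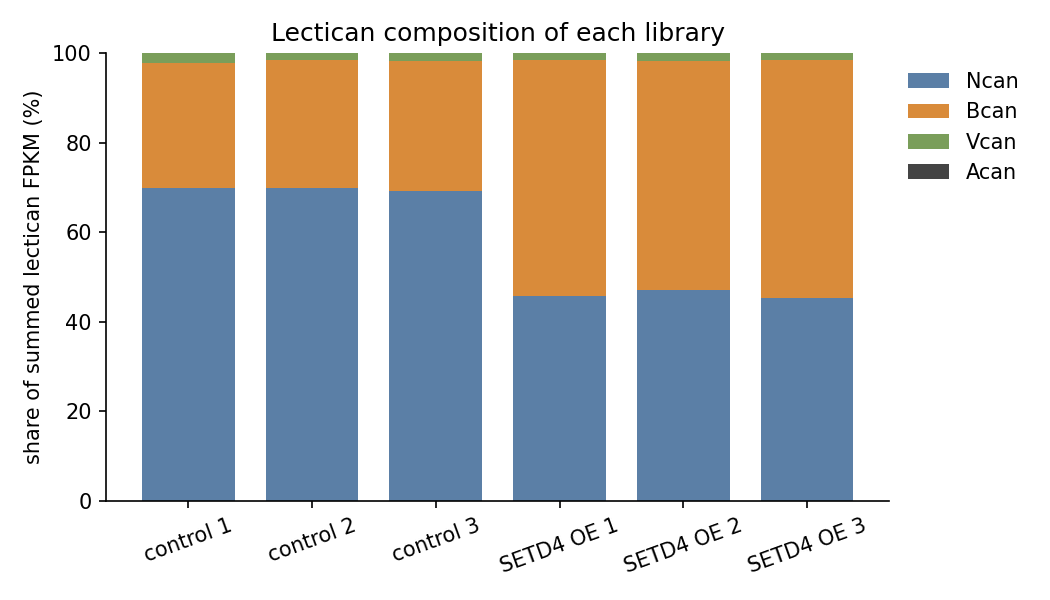
Share of each lectican gene in the summed FPKM of Ncan, Bcan, Vcan and Acan, in percent, with a stacked bar per library. Bcan holds 27.9% to 29.0% in the controls and 51.0% to 53.1% in SETD4 OE, and Acan is too low to be seen.

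Of the link protein genes Hapln1 (ENSMUSG00000021613; chromosome 13, 89687915 to 89759771, plus strand) encodes the link protein first known from cartilage, which also stabilises hyaluronan and lectican complexes in brain. It held 27, 30 and 19 reads in the controls (0.286, 0.289 and 0.202 FPKM) and 64, 73 and 61 reads in SETD4 OE (0.687, 0.796 and 0.620 FPKM). Each SETD4 OE library was above each control, but the mean was under the 1 FPKM filter. When all genes above 0 were tested, it was among the 12.9% called higher (log2 fold change 0.43, adjusted p = 0.00889, limma), and limma-voom on the recovered reads, which adds no pseudocount of 1 FPKM, gave 1.40 (adjusted p = 5.35e-04).

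In the mouse genome each lectican gene lies beside a link protein gene, and in the deposited annotation no gene is listed between the members of any of the 4 pairs. The gap is 43659 bases between Hapln1 and Vcan, 21519 bases between Bcan and Hapln2, 2222 bases between Hapln4 and Ncan, and 2 bases between Acan and Hapln3. Beside the abundant Bcan, Hapln2 had 1, 0 and 2 reads in the controls and 4, 4 and 9 in SETD4 OE. Hapln4, beside Ncan, fell from 3.25 ± 0.283 to 1.71 ± 0.176 FPKM (log2 fold change -0.65, adjusted p = 6.56e-04, limma), a larger change than the -0.22 of Ncan. Hapln1 was higher beside a Vcan whose groups overlapped. Acan had 69 reads over the controls and 30 over SETD4 OE, and Hapln3 had 97 and 174. The summed link protein level was 3.82 to 4.32 FPKM in the controls and 3.46 to 3.79 FPKM in SETD4 OE, and the ratio of summed lectican to summed link protein FPKM went from 106 ± 4.40 to 157 ± 3.31.

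**Figure D3:**
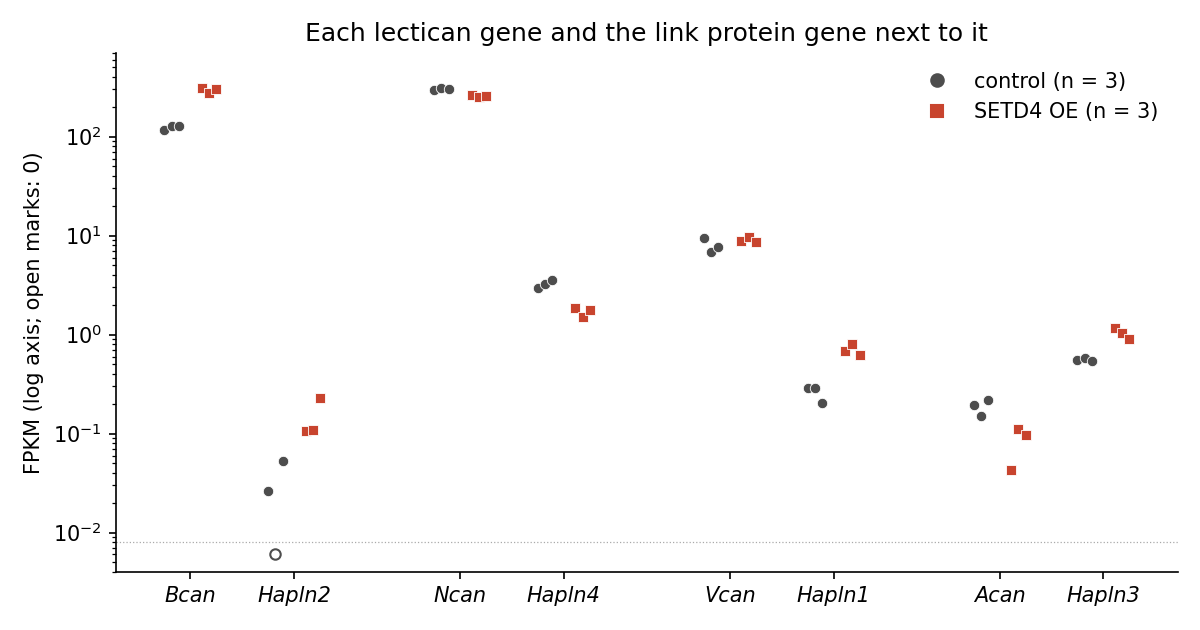
FPKM on a log axis of each lectican gene and the link protein gene next to it on the chromosome, with a point per library (n = 3 per group, controls grey, SETD4 OE red, open marks for 0 FPKM). The link protein genes lie between 0 and 3.52 FPKM, and Hapln4 is lower in SETD4 OE while Hapln1, Hapln2 and Hapln3 are higher.

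Both membrane-bound proteoglycans rose, Cspg5 more firmly than Ptprz1. Cspg5 (ENSMUSG00000032482; chromosome 9, 110072851 to 110091644, plus strand) encodes neuroglycan C, a transmembrane proteoglycan of the nervous system with an EGF-like domain. It measured 13.9, 16.8 and 15.9 FPKM in the controls and 27.7, 25.9 and 28.6 FPKM in SETD4 OE. The groups were well apart (limma log2 fold change 0.78, SE 0.08, adjusted p = 1.47e-04).

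Ptprz1 (ENSMUSG00000068748; chromosome 6, 22875501 to 23052915, plus strand) encodes a receptor tyrosine phosphatase that carries chondroitin sulfate, and a secreted splice form known as phosphacan. Its values were 129, 102 and 113 FPKM in the controls and 142, 152 and 127 FPKM in SETD4 OE. Control replicate 1 was above SETD4 OE replicate 3, so the groups overlapped, and the call was narrow (limma log2 fold change 0.30, SE 0.11, adjusted p = 0.0440). It held in 10 of 17 alternative analyses. Leaving out control replicate 2 or 3 ended it (adjusted p = 0.120 and 0.108), as did leaving out SETD4 OE replicate 1 or 2 (0.112 and 0.133). The call was also lost without a filter, under the replicate block and with scaling by the median of ratios. Without control replicate 1 it held, at a log2 fold change of 0.38.

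Vcan and Ptprz1 have the longest gene models of the 9, at 14462 and 14245 bases. Ptprz1 lay 0.17 above, 0.16 below and 0.01 below the control mean on the log2 scale in control replicates 1, 2 and 3, and Vcan 0.23 above, 0.19 below and 0.03 below. Over the 1190 tested genes of 10000 bases or more, the median deviations of the same libraries were 0.05, -0.05 and 0.00. In SETD4 OE replicates 1, 2 and 3 these medians were 0.01, 0.04 and -0.05, and Ptprz1 deviated by 0.02, 0.12 and -0.14. The median log2 fold change of these long genes was 0.05, beside -0.11 for genes under 5000 bases. Cspg5, at 10074 bases, falls in the same class, and in control replicates 1, 2 and 3 it deviated the other way, by -0.14, 0.11 and 0.03. In SETD4 OE replicates 1, 2 and 3 Cspg5 deviated by 0.02, -0.08 and 0.06. These length classes were set after the values were seen, and their part in the results for Vcan, Ptprz1 and Cspg5 was not tested.

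Of 17 ligands and receptors of the 9 genes 11 were tested, of which 5 rose and 6 fell (median log2 fold change -0.32), beside 26.0% higher and 33.9% lower over all tested genes. Ptn, which encodes pleiotrophin, the best known ligand of Ptprz1, was at 248, 271 and 260 FPKM in the controls and at 356, 355 and 355 FPKM in SETD4 OE, above every control. Its relative midkine, Mdk, named after its value was seen, rose from 24.3 ± 2.39 to 40.1 ± 3.16 FPKM. The largest rise was in Cntn1, which encodes contactin 1, a cell surface partner of Ptprz1 (7.39 ± 0.501 to 20.7 ± 0.859 FPKM, log2 fold change 1.37). Ptprs, a receptor for chondroitin sulfate chains, and Egfr, the receptor of epidermal growth factor, rose by 0.89 and 0.90 on the log2 scale. Itgav, the integrin alpha V chain of receptors for tenascin-C and other matrix proteins, had a log2 fold change of -0.83.

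Tnc fell, and its relative Tnr rose. Tnc (ENSMUSG00000028364; chromosome 4, 63878022 to 63965252, minus strand) encodes tenascin-C, a many-armed glycoprotein of germinal zones and wounds that binds lecticans and integrins. It measured 63.1, 69.3 and 70.2 FPKM in the controls and 29.8, 28.8 and 29.4 FPKM in SETD4 OE. Each control was far above every SETD4 OE library (limma log2 fold change -1.17, SE 0.06, adjusted p = 8.00e-06). Tnr encodes tenascin-R, the tenascin of oligodendrocyte lineage cells and perineuronal nets, and held 2.33 to 2.72 FPKM in the controls and 10.8 to 12.2 FPKM in SETD4 OE (log2 fold change 1.86). The ratio of Tnc to Tnr was 23.2 to 30.2 in the controls and 2.37 to 2.73 in SETD4 OE, so Tnc stayed the more abundant of the pair in all 6 libraries.

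The SPARC family pair also differed. Sparcl1 (ENSMUSG00000029309; chromosome 5, 104226977 to 104261599, minus strand) encodes hevin, a secreted astrocyte protein that promotes synapse formation. It held 288, 301 and 284 FPKM in the controls and 668, 651 and 664 FPKM in SETD4 OE. The libraries of a group lay close together and the groups far apart, a 2.27-fold rise (limma log2 fold change 1.18, SE 0.06, adjusted p = 9.77e-06).

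Sparc (ENSMUSG00000018593; chromosome 11, 55285326 to 55314009, minus strand) encodes osteonectin, a secreted calcium-binding protein that counters adhesion. It held 56.8, 61.9 and 60.8 FPKM in the controls and 55.2, 51.4 and 59.6 FPKM in SETD4 OE. The groups overlapped (log2 fold change -0.11, 95% interval -0.28 to 0.06, adjusted p = 0.214, limma), and the sign turned with equal sums of FPKM (0.020) and with quantile normalization (0.087). No call was made for Sparc in any of the 17 alternatives. The ratio of Sparcl1 to Sparc, which is free of the scaling between libraries, was 5.07, 4.86 and 4.68 in the controls and 12.1, 12.7 and 11.2 in SETD4 OE.

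**Figure D4:**
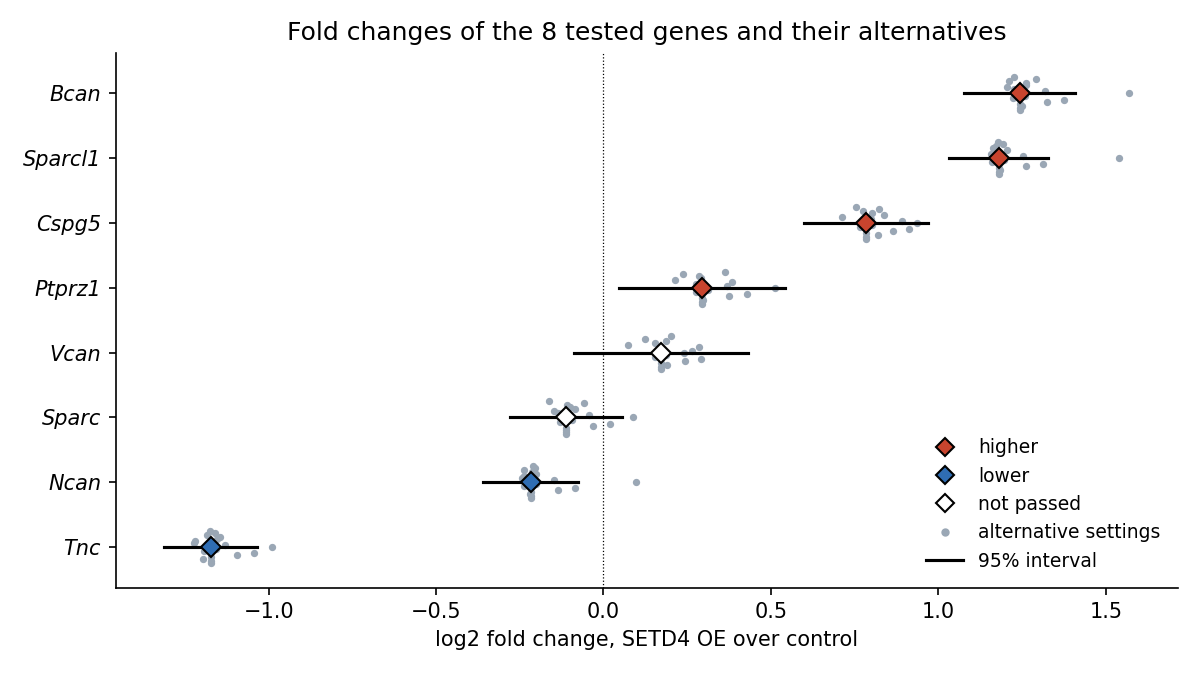
Log2 fold change of SETD4 OE over control for the 8 tested genes, with the 95% interval as a line, a diamond coloured by call, and a grey point for each of 17 alternative analyses. Bcan, Sparcl1, Cspg5, Ptprz1, Vcan and Tnc keep their side of 0 in all of them. Ncan and Sparc cross it under quantile normalization, and Sparc also with equal sums of FPKM.

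Genes listed on top of the members could add little to these values. Bcan, Ptprz1 and Sparc overlap no other listed gene, and the highest mean of any gene overlapping the rest was 1.59 FPKM (Gm26703 within Sparcl1, in SETD4 OE).

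Of 22 genes of chondroitin sulfate synthesis 18 were tested, of which 10 fell, 1 rose and 7 did not pass, with a median log2 fold change of -0.41, beside 33.9% lower, 26.0% higher and a median of -0.06 over all tested genes. Chst7, which sulfates the sugar N-acetylgalactosamine, showed the largest fall (24.6 ± 3.29 to 8.51 ± 0.628 FPKM, log2 fold change -1.42). Chsy1, a chondroitin synthase, had a log2 fold change of -1.11, Chst11, a chondroitin 4-sulfotransferase and the most abundant of the list, of -0.93, and Xylt1, which starts the chain on the core protein, of -0.80. The gene that rose was Csgalnact1, which adds the first N-acetylgalactosamine (1.89 ± 0.196 to 4.03 ± 0.631 FPKM), named after its value was seen.

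Among 8 tested hyaluronan genes 1 rose and 4 fell (median -0.26), and the share called is near the 60.0% of all tested genes. Cd44, the main hyaluronan receptor, was at 64.1, 54.7 and 56.9 FPKM in the controls and at 25.9, 28.2 and 25.6 FPKM in SETD4 OE, lower in each library (log2 fold change -1.11). Hmmr, a hyaluronan-binding protein of the mitotic spindle, had a log2 fold change of -1.67 and Hyal2, a hyaluronidase, of -0.50. Tnfaip6, a hyaluronan-binding protein of inflamed tissue, rose from 4.66 ± 0.569 to 6.97 ± 1.14 FPKM. The count of genes that rose was between 1 and 3 over the alternatives.

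Of the 4 tested genes among lectican-cleaving proteases and their inhibitor, 2 rose and 2 fell, where 26.0% and 33.9% of all tested genes did. Timp3, the matrix-bound inhibitor of ADAMTS proteases, rose from 10.5 ± 1.52 to 21.8 ± 0.256 FPKM, and the versican protease gene Adamts9 from 3.01 ± 0.204 to 4.91 ± 0.190 FPKM. Adamts1 fell from 10.8 ± 0.939 to 7.67 ± 0.753 FPKM. Adamts4, an aggrecanase that also cuts brevican, was at 6.11 ± 0.586 and 5.02 ± 0.427 FPKM (log2 fold change -0.24, adjusted p = 0.0440, limma), a call that held in 5 of 17 alternatives. The strand setting of the counting was not given, and the value of Adamts4 is uncertain for that reason.

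Of 10 other tested matricellular genes 5 rose and 2 fell (median 0.30), beside 26.0% and 33.9% of all tested genes, and among those with a mean of at least 5 FPKM 3 rose and 1 fell. Smoc1, a secreted relative of Sparc, held 18.8, 18.5 and 17.0 FPKM in the controls and 81.0, 85.0 and 81.3 FPKM in SETD4 OE, the largest log2 fold change of the list (2.13). Fstl1, a further relative, rose by 0.50 on the log2 scale. Spp1, which encodes osteopontin, fell from 21.3 ± 1.45 to 8.57 ± 1.19 FPKM, and Ccn3 had a log2 fold change of -0.76. Among 13 other tested proteoglycan core proteins 5 rose and 3 fell (median 0.18), a share called near the 60.0% of all tested genes. One of the 5, Gpc2, was under 1 FPKM in the controls and was tested only through its level in SETD4 OE. This glypican gene had 0.983 ± 0.126 and 3.64 ± 0.200 FPKM, Prelp and Bgn of the small leucine-rich family rose by 1.00 and 0.78 on the log2 scale, and the syndecan gene Sdc1 had a log2 fold change of -0.98. Sdc3, the most abundant, did not pass (42.1 ± 3.34 and 47.8 ± 2.83 FPKM, adjusted p = 0.0785, limma).

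**Figure D5:**
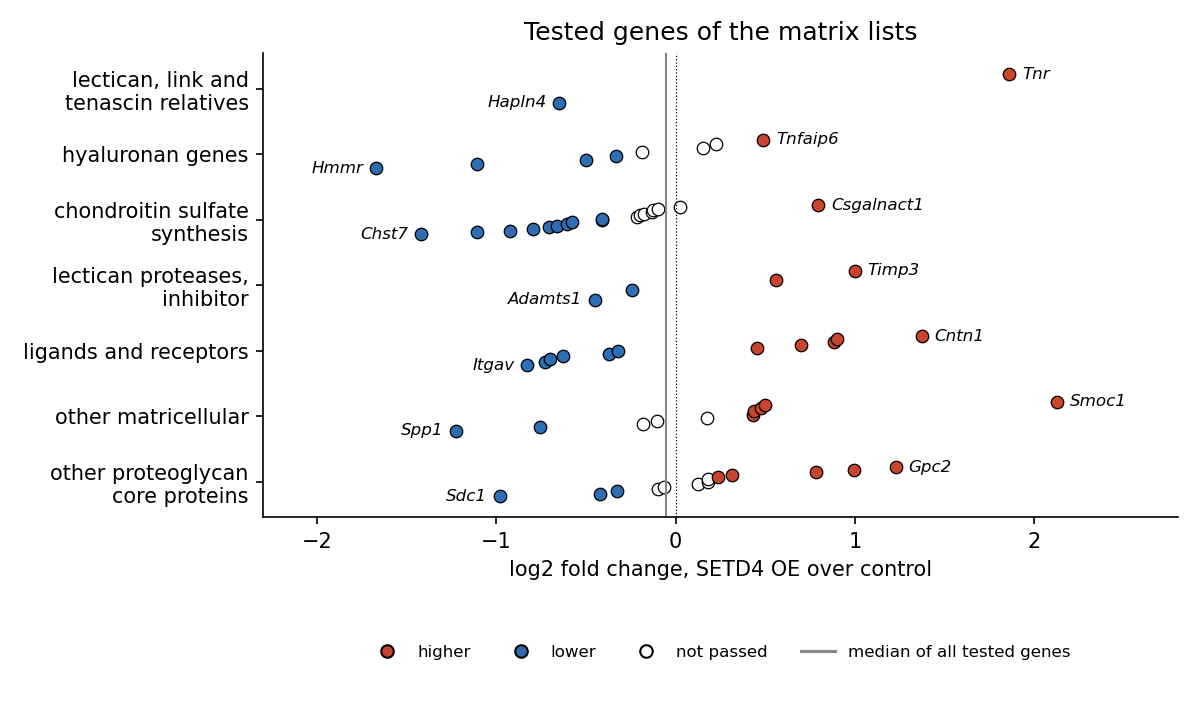
Log2 fold change of SETD4 OE over control for the 66 tested genes of 7 matrix lists, 1 point per gene coloured by call, with the grey line at the median of all tested genes (-0.06). Most called genes of chondroitin sulfate synthesis lie to the left, and the lowest and highest gene of each list are named.

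Of 105 genes in the 7 matrix lists 39 were under the expression filter and so were not tested. Among these, 17 were higher in SETD4 OE with no overlap between the groups, where 14.1% of all 17917 genes above 0 and under the filter were, and 4 were lower, where 3.61% were. This comparison was made after the values were seen. It was not matched for depth, since the 17917 include any gene with a value above 0. The hyaluronan synthase gene Has2 had levels of 0.579 ± 0.0669 FPKM (control) and 1.26 ± 0.349 FPKM (SETD4 OE). The periostin gene Postn had 0.136 ± 0.0369 and 0.581 ± 0.154 FPKM, the glypican gene Gpc5 0.534 ± 0.124 and 1.42 ± 0.247 FPKM, and the fibromodulin gene Fmod 0.369 ± 0.126 and 1.23 ± 0.354 FPKM. The 4 lower genes were Acan, the synthase gene Chsy3, the epimerase gene Dse and the tenascin-C receptor chain gene Itga9 (0.824 ± 0.0802 and 0.433 ± 0.0377 FPKM). Few reads stand behind these values, 121 and 256 over the libraries of each group for Has2 and 59 and 242 for Postn.

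Markers of the cell types known for these genes were counted in the same fit, in which 26.0% of all tested genes rose and 33.9% fell. Of 9 tested astrocyte markers 8 rose and none fell, and the summed level of the list went from 698 to 737 FPKM in the controls to 2171 to 2269 FPKM in SETD4 OE. Of 7 tested oligodendrocyte precursor markers 5 rose and 2 fell, and their sum went from 1153 to 1289 FPKM to 719 to 778 FPKM, since the abundant Olig1 and Olig2 were the 2 that fell. The neural stem cell markers split into 7 higher and 3 lower, at sums of 2461 to 2671 and 2105 to 2188 FPKM. All 5 tested oligodendrocyte markers rose (42.6 to 45.8 and 83.9 to 90.9 FPKM), as did 5 of 6 tested ependymal markers (21.6 to 26.1 and 53.1 to 69.7 FPKM), and neuronal markers had 1 of 3 higher and 1 lower (36.5 to 40.9 and 40.6 to 47.4 FPKM). The called markers Mag of oligodendrocytes and Tmem212 and Pifo of ependymal cells were under 1 FPKM in the controls and were tested only through their levels in SETD4 OE. The part of these cell types in the changes of Bcan, Sparcl1, Cspg5, Ptprz1, Tnc and Ncan was not tested, and in bulk libraries fewer cells of a type and less RNA per cell cannot be told apart.

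Sparc and Sparcl1 are also known from blood vessels, and Sparc from microglia. Endothelial markers summed to 4.15 to 4.39 FPKM in the controls and 1.47 to 1.76 FPKM in SETD4 OE, where Flt1, the 1 tested of 9, had 3.43 ± 0.148 and 0.618 ± 0.0638 FPKM and was tested only through its control level. Microglia and macrophage markers summed to 6.80 to 10.3 and 5.40 to 6.77 FPKM, with 1 of 9 tested (Cd68, lower). Cd68 made up most of both sums, with means of 6.94 and 3.75 FPKM. Under the filter, P2ry12 (86 and 123 reads) and C1qa (7 and 31 reads) were higher in SETD4 OE with no overlap between the groups. Tmem119 and C1qb had higher means with overlap, and Cx3cr1 was lower, at 3 and 0 reads. Aif1 and Itgam had 0 reads in the controls and 2 of each in SETD4 OE. Markers of mural cells and fibroblasts summed to 32.7 to 37.4 and 21.3 to 25.7 FPKM, with 3 of 4 tested higher and 1 lower, of which Rgs5 and Col1a1 were tested only through their SETD4 OE levels. The 1 lower was Acta2 (30.9 ± 2.48 and 11.6 ± 1.62 FPKM), which made up most of the control sum. The 3 higher were Col1a1 (0.752 ± 0.108 and 3.80 ± 0.494 FPKM), Col3a1 (1.13 ± 0.146 and 3.96 ± 0.295 FPKM) and Rgs5.

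For each tested member the gene with the most similar profile was taken as the one with the smallest root mean square difference of centred log2(FPKM + 1) values over the 6 libraries, out of 11531 named genes. It was Ctsf, a lysosomal protease gene, for Bcan (difference 0.04), Bdh1, a ketone body enzyme gene, for Sparcl1 (0.03), Apba2 for Cspg5 (0.01) and Plxnd1, a semaphorin receptor gene, for Ncan (0.02). For Tnc it was Rad51ap1, a DNA repair gene (0.02), and for Sparc it was Dhrs7b (0.01). Vcan was nearest to Nipbl, the cohesin loader (0.02), and Ptprz1 to Rev3l, a DNA polymerase gene (0.02). With 2 groups of 3 libraries many genes share a profile, so these are descriptions of likeness.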

How the data were processed

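RNA of 6 libraries was sequenced. Per the submitters' processing notes, HISAT2 2.0.5 was among the tools and mm39 was the build. The counting tool, the annotation, the strand setting and the layout of reads are not given in the sources used here. As deposited by the authors, the FPKM values stand in a table per group, whose header does not name the unit. The unit was inferred from the values: value times gene length stepped in whole reads for 100% of values (tolerance 0.05 reads). The recovered totals differed from the library sizes these steps imply by 0.634% to 2.75% in the controls and by -5.04% to -3.69% in SETD4 OE. This offset therefore ran with the groups. Scaling to equal sums of recovered reads moved the median log2 fold change by 0.07.

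Values were taken as log2(FPKM + 1), which understates changes of low genes. Genes whose mean reached 1 FPKM entered limma 3.58.1 (R 4.3.3, mean-variance trend, two-sided, Benjamini-Hochberg over 12994 genes). The median tested gene held 546 reads in a library and had a standard error of 0.08. Tested on simulated reads for this comparison (13084 genes tested), the step found 72 of 89 genes altered 1.5-fold and 110 of 111 altered 3-fold, with 10 false calls. The spread between simulated libraries was fixed (dispersion 0.003) and not fitted to these data. The altered genes were drawn above a floor of reads and were far fewer than the genes that changed here. These counts hold for that setting only. No library repeated another: chi-square per degree of freedom between pairs ranged from 3.89 to 16.3 inside a group and from 92.8 to 121 across groups. The 9 members and all lists were chosen with earlier results of these data known. Named from each list were up to 4 changed genes of largest change and the most abundant one. Alternatives were other filters, a pseudocount of 0.1, other scalings, limma-voom on recovered reads, the replicate number as a block and leaving out each library. Equal sums of FPKM and limma-voom without a filter were added after the data were seen. Figures used matplotlib 3.10.9.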

Additional observations from a re-analysis of the deposited data

How the results depend on the processing

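Bcan, Sparcl1, Cspg5 and Tnc kept direction and call in all 17 alternatives, with log2 fold changes of 1.21 to 1.57, 1.16 to 1.54, 0.71 to 0.94 and -1.22 to -0.99. The fall of Ncan turned to 0.10 with quantile normalization, and Sparc, which had no call, turned to 0.020 with equal sums of FPKM and 0.087 with quantile normalization. Equal sums of FPKM moved the median of all genes by 0.12 (log2). Of all changed genes 43.4% were higher (3384 higher, 4406 lower), and 56.1% with equal sums of FPKM (4280 and 3349). With a mean of at least 5 FPKM 8057 genes were tested, of which 1881 were higher and 3375 lower. There 35.8% of calls were upward, and the median log2 fold change was -0.13. Leaving out 1 library at a time gave 2843 to 3371 higher and 3781 to 4503 lower genes.

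The members called higher numbered 3 to 5 over all alternatives. Those called lower numbered 2, and 1 without a filter, under the replicate block, with equal sums of recovered reads, with equal sums of FPKM, with quantile normalization and (range 1 to 2) when control replicate 3 or SETD4 OE replicate 2 or 3 was left out. In each of these cases the lost call was Ncan. Replicate numbers did not pair the libraries: deviations of same-numbered libraries correlated at -0.07, -0.23 and 0.08 across genes, and control replicate 1 correlated best with SETD4 OE replicate 2. The replicate block gave 2993 higher and 3948 lower genes, and 3 members higher and 1 lower.

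Counts in the lists moved as follows. Without a filter, 2 lectican and tenascin relatives, 2 hyaluronan genes and 8 other proteoglycan core proteins were higher and 1 protease lower. With a mean of at least 5 FPKM, 0 relatives were lower, 0 chondroitin sulfate genes, 1 protease or inhibitor, 3 matricellular genes and 1 core protein higher, and 1 matricellular gene lower. Higher hyaluronan genes numbered 2 with a pseudocount of 0.1, upper quartile or quantile normalization, 3 with equal sums of recovered reads or of FPKM and with limma-voom, and 2 with limma-voom without a filter. Proteases lower numbered 1 under the replicate block, with equal sums of recovered reads or of FPKM, upper quartile, quantile normalization and limma-voom, since Adamts4 was lost. Equal sums of FPKM gave 8 core proteins higher, and limma-voom without a filter 10, with 3 relatives higher and 2 lower. Leaving out libraries gave 1 to 2 hyaluronan genes higher and 1 to 2 proteases lower. The depth limits Hapln1 and the other link protein genes, which rest on at most 225 reads per library.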
